A study of Mus musculus with 12 samples.

Results

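The genes described here are 36 enzymes and regulators, most of which build fatty acids and turn them into the sphingolipids of myelin. They are read from 33864 loci in the deposited table of mouse white matter expression. Galc and Smpd1 instead degrade sphingolipids, Sgpp2 acts on a sphingoid phosphate, and Gpd1 and Pcyt2 lead into glycerolipids. The 36 genes were chosen by symbol, with earlier results of these data known. A gene was read from the locus that carried its symbol and, where 2 loci carried it (Scd2 alone), from the locus with the higher mean over all libraries. All 36 had a locus, and all 36 passed the filter on low values of at least 1 FPKM in at least 3 of the 12 libraries. FPKM, the fragments of a transcript scaled to its length and to the mapped fragments of the library, is a level per length, so that levels of different genes can be set side by side.

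The study sequenced polyadenylated RNA of subcortical white matter from 2 mouse lines in which a Sox10-driven transactivator, tTA, was combined with a transgene behind a tetracycline response element, TRE. Sox10 is a transcription factor of oligodendrocytes and their precursors. The dnEGFR mutants, Sox10-tTA;TRE-dnEGFR, and their TRE-dnEGFR littermate controls were sampled at postnatal day 35 after doxycycline from day 21 to day 35. The ErbB2V664E mutants, Sox10-tTA;TRE-ErbB2V664E, and their TRE-ErbB2V664E littermate controls were sampled at day 30 after doxycycline from day 21 to day 30. Both transgenes concern receptor tyrosine kinases of the ErbB family, dnEGFR being a dominant-negative epidermal growth factor receptor and ErbB2V664E an activated form of ErbB2 altered within the membrane-spanning part. Each of the 4 groups held 3 libraries, and the 6 litters each gave 1 mutant and 1 control. All groups carried a TRE transgene and received doxycycline. No group carried tTA alone, so effects of tTA and of the transgene it drives cannot be told apart, and the labels do not say whether doxycycline turned the transgenes on or off or whether tissue of several animals was pooled.

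Myelin is among the most lipid-rich membranes of the body, and oligodendrocytes make most of its lipid themselves. Fatty acids are assembled from citrate-derived acetyl-CoA, lengthened at the endoplasmic reticulum, given double bonds by desaturases and activated as acyl-CoA. Very long acyl chains are joined to a sphingoid base to give ceramide. In oligodendrocytes ceramide with a hydroxylated chain is coupled to galactose, and part of the resulting galactosylceramide is sulfated to sulfatide. Galactosylceramide and sulfatide are the typical glycolipids of myelin.

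Summed FPKM of a library lay between 117363 and 134410, and the steps of low values placed depth at an estimated 16596872 to 24739584 fragments, so that 1 FPKM of a 2 kb transcript stood for 33.2 to 49.5 fragments. Correlations of log2(FPKM + 1) between libraries of 1 group lay between 0.954 and 0.963. Egfr was at 2.77 to 3.08 FPKM in dnEGFR mutants and 2.64 to 3.32 FPKM in dnEGFR controls, and Erbb2 at 0.833 to 0.894 FPKM in ErbB2V664E mutants and 0.772 to 0.97 FPKM in ErbB2V664E controls. Each gene overlapped between mutants and controls of the line that carries its transgene, so these levels do not check the transgenes, and the labels give neither their species nor the part of the receptor they encode. Egfr in the ErbB2V664E line was at 1.18 to 1.495 FPKM in mutants and 1.88 to 2.01 FPKM in controls, with no overlap (log2 change -0.30, adjusted p = 0.202 by limma over all loci tested). Sox10, whose sequences drive tTA in the mutants, was at 14.8 to 16.4 FPKM in ErbB2V664E mutants and 22.3 to 29.8 FPKM in ErbB2V664E controls, again with no overlap (log2 change -0.72, adjusted p = 0.399). It was at 4.62 to 11.1 FPKM in dnEGFR mutants and 5.24 to 12.7 FPKM in dnEGFR controls (log2 change 0.00, adjusted p = 1). The tissue expressed myelin genes in every library, with a summed level of 12 mature myelin markers between 801 and 1970.1 FPKM. The summed level of 4 adipocyte and liver markers, which would mark other tissues rich in lipid synthesis, did not exceed 0.418 FPKM.

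The 36 genes spanned a wide range of levels. Scd2, the stearoyl-CoA desaturase of the brain, was the most abundant at a mean of 303 FPKM over the 12 libraries. Scd1, another stearoyl-CoA desaturase, followed at 46.1 FPKM, and Fads2, the first desaturase of polyunsaturated fatty acid synthesis, at 45.5 FPKM. The dihydroceramide desaturase Degs1 was at 28.2 FPKM, the ATP citrate lyase Acly at 27.05 FPKM, fatty acid synthase Fasn at 26.4 FPKM and the ceramide synthase Cers2 at 19.2 FPKM. At the low end stood the ceramide synthase Cers6 at 1.09 FPKM and the sphingomyelin synthase Sgms2 at 0.857 FPKM. Scd2 and Scd1 are close paralogs, and the sources used here do not say how the deposited values divide fragments that match both.

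**Figure D1:**
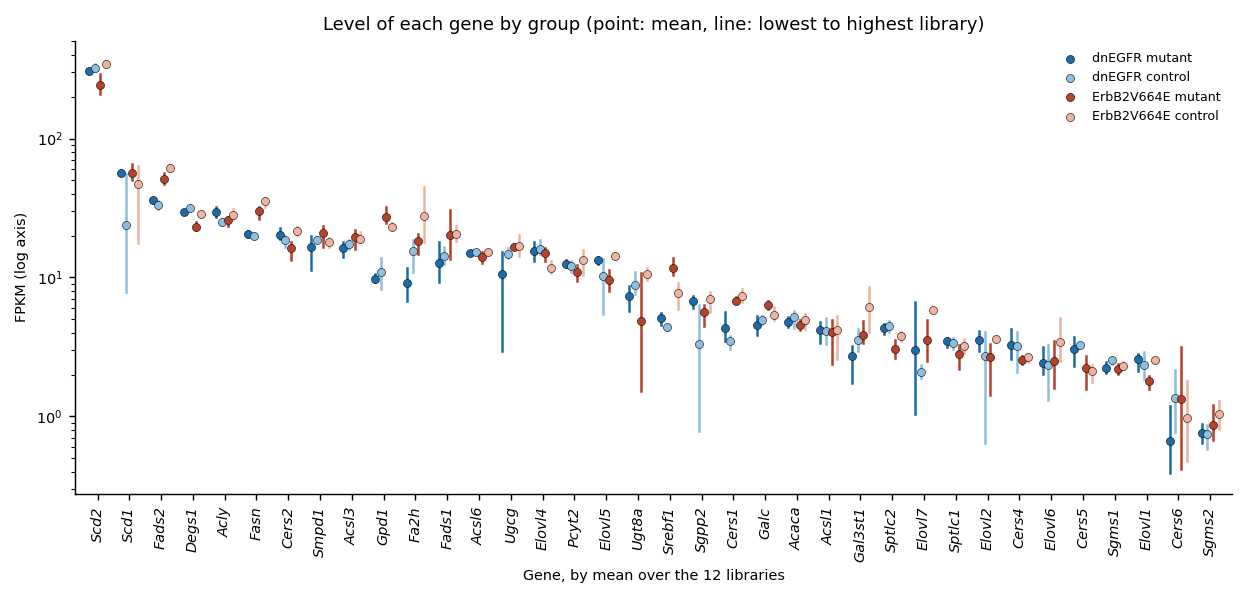
Level of the 36 genes in FPKM on a log axis, ordered by the mean over the 12 libraries, with a point for the mean of each group and a line from its lowest to its highest library (n = 3). Scd2 stood at 243 to 341 FPKM in the 4 group means, above every other gene. Sgms2, at group means of 0.753 to 1.04 FPKM, was lowest by the mean over the 12 libraries. Cers6 was below it in the means of dnEGFR mutants (0.669 FPKM) and ErbB2V664E controls (0.982 FPKM).

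Members of a family differed in their share of its summed level. Cers2, which makes ceramide with very long acyl chains, held 64.3 ± 7.59% of the summed FPKM of the 5 ceramide synthases in dnEGFR mutants and 62.2 ± 5.69% in dnEGFR controls, and 55.5 ± 7.82% in ErbB2V664E mutants and 62.3 ± 3.84% in ErbB2V664E controls (SD, n = 3 each). Elovl4 and Elovl5 had the largest shares among the 6 elongases. Elovl4, which extends very long chains, held 42.8 ± 5.07% in ErbB2V664E mutants and 28.1 ± 2.74% in ErbB2V664E controls. Every ErbB2V664E mutant had a higher Elovl4 share than every control, with an exact two-sided permutation p of 0.1, the smallest that 3 libraries against 3 allow. For dnEGFR mice the Elovl4 share was 38.1 ± 2.2% in mutants and 45.5 ± 6.32% in controls (exact permutation p = 0.2), so it lay the other way. Elovl5 held 27.3 ± 4.34% in ErbB2V664E mutants and 34.6 ± 1.79% in ErbB2V664E controls (exact permutation p = 0.1). Such shares were compared for 22 genes of several families in both lines, 44 comparisons in all. The exact p of 0.1 was reached by 6 shares in the ErbB2V664E line, those of Scd1, Scd2, Elovl1, Elovl4, Elovl5 and Cers1, and by 2 in the dnEGFR line, those of Scd1 and Scd2, which add up to the whole of their pair. Adjusted by Benjamini and Hochberg over the 44, the exact permutation p of each of these was 0.55.

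Mutants and controls were compared with limma on log2(FPKM + 1), and a gene was called when its p-value, adjusted by Benjamini and Hochberg over all 13803 loci tested, was under 0.05. No lipid gene was called in the dnEGFR mutants, where 0.0942% of all loci were, and none in the ErbB2V664E mutants, where 0.275% of all loci were. None was called for the difference of these effects either (0.116% of all loci). With the litter as a block, 7 loci in the ErbB2V664E line, 3 in the dnEGFR line and 4 for the difference were called, against 38, 13 and 16 without it, and again no lipid gene was. At an unadjusted p under 0.05, limma gave 2 of the 36 genes in the dnEGFR line (5.56%, against 5.69% of all loci) and 10 of the 36 in the ErbB2V664E line (27.8%, against 12.1% of all loci). The list was chosen with earlier results of these data known, so its shares beside those of all loci are descriptions and not a test. The smallest adjusted p of the 36 was 0.794 in the dnEGFR line, 0.126 in the ErbB2V664E line and 0.45 for the difference. A p-value over the threshold does not show that a level was the same, and the plot of log2 changes gives the 95% confidence interval of every gene.

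Of the 10 genes in the ErbB2V664E line, 8 were lower in the mutants, namely Fasn, Scd2, Fads2, Elovl1, Sptlc2, Cers2, Degs1 and Ugt8a (22.2% of the 36, against 6.24% of all loci). Srebf1 and Elovl4 were higher (5.56%, against 5.9% of all loci). With the litter as a block, the unadjusted p by limma was over 0.05 for Fasn (0.0941), Sptlc2 (0.0518) and Elovl4 (0.0537). It was then under 0.05 for Elovl5 (0.038), which was lower. In that line 27 of the 36 genes had a log2 change below 0, against 49% of all loci, and their median log2 change was -0.12, against a median of 0.00 over all loci. In the dnEGFR line 18 of the 36 genes had a log2 change below 0, against 48.1% of all loci, with a median of -0.01. The genes with an unadjusted p under 0.05 there, Scd1 and Sgpp2, were both higher (3.27% of all loci were higher with such a p). For the difference of the effects, ErbB2V664E minus dnEGFR, 7 of the 36 genes had an unadjusted p under 0.05 (19.4%, against 9.01% of all loci). All 7 were negative, and 4.77% of all loci were negative with such a p. Of the 7, Acly had an unadjusted p over 0.05 with the litter block (0.0617 by limma). The difference was below 0 for 23 of the 36 genes, against 50.5% of all loci. In 8 of the 36 genes every ErbB2V664E mutant was below every control (8.96% of all loci), and in 3 every mutant was above (9.28% of all loci). In the dnEGFR line these counts were 1 below (4.57% of all loci) and 2 above (5.58% of all loci). In 4 of the 36 genes, Fasn, Fads2, Elovl5 and Cers2, every ErbB2V664E mutant lay below its littermate and every dnEGFR mutant above (11.1%), and in 4.04% of all loci every litter of one line lay opposite to every litter of the other. In a bulk tissue, fewer cells of a type and less RNA per cell cannot be told apart.

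**Figure D2:**
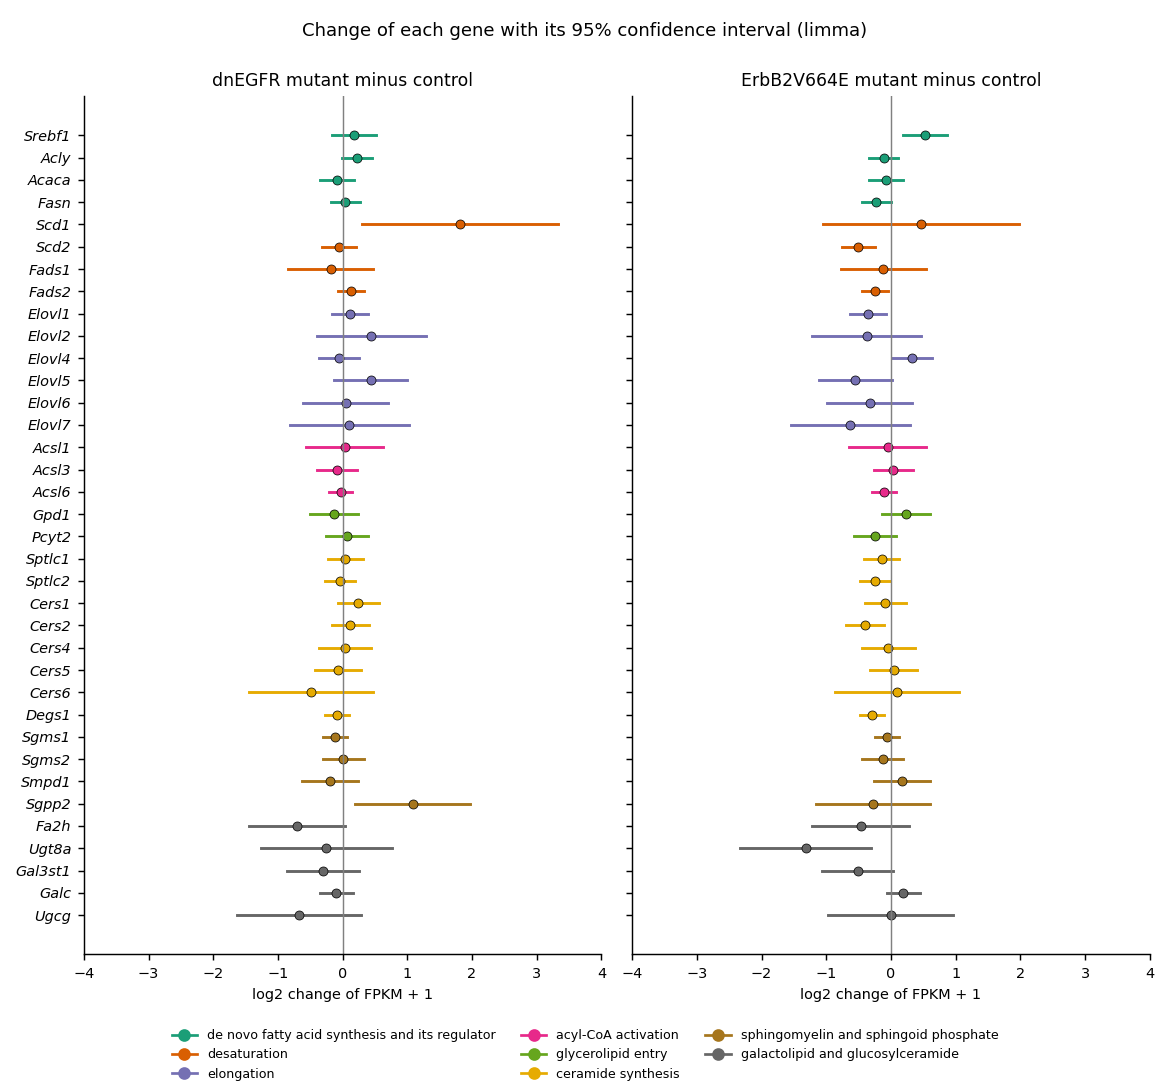
Log2 change of FPKM + 1, mutant minus control, of each of the 36 genes with its 95% confidence interval from limma, with the dnEGFR line on the left, the ErbB2V664E line on the right and colours for the pathway steps. In the ErbB2V664E line 27 points lie below 0, and Ugt8a at -1.32 lies lowest; in the dnEGFR line the points are divided 18 to 18, and Scd1 at 1.81 has the widest interval.

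The first step is carried by 4 genes, and none of them was called. Srebf1 encodes the transcription factor SREBP-1, which activates fatty acid synthesis genes. It was at 10.6, 13.8 and 10.5 FPKM in the ErbB2V664E mutants, against 9.09, 8.36 and 5.9 FPKM in their controls. Every mutant was above every control (log2 change 0.53, SE 0.15, adjusted p = 0.195). Srebf1 was at 5.53, 4.56 and 5.21 FPKM in dnEGFR mutants, against 4.21, 4.4 and 4.62 FPKM in dnEGFR controls. These groups overlapped in 1 library of each (log2 change 0.17, SE 0.15, adjusted p = 0.987).

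Fasn, the enzyme that assembles palmitate, stood against Srebf1 in direction in the ErbB2V664E line. Its level was 31.6, 32.2 and 26.3 FPKM in the ErbB2V664E mutants, against 32.2, 36.3 and 37.6 FPKM in their controls. Each mutant was below its own littermate, but mutant 2 and control 1 were at nearly equal levels (log2 change -0.23, 95% confidence interval -0.45 to -0.01, adjusted p = 0.394). Without mutant 3 the log2 change of Fasn was -0.14. Fasn in the dnEGFR line was at 21.6, 19.9995 and 19.6 FPKM in mutants, against 20.4, 19.9 and 19.1 FPKM in controls. There each mutant was above its littermate by a small amount (log2 change 0.04, 95% confidence interval -0.18 to 0.26, adjusted p = 1).

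The bases upstream of Fasn are shown because its promoter is a textbook case of SREBP and NF-Y control, and Srebf1 and Fasn lay on opposite sides of 0 in the ErbB2V664E line. The 200 bases before its start, from the RefSeq promoter table (GRCm38.p6, minus strand, chr11:120824548-120824747), hold 3 copies of the NF-Y box, CCAAT or its reverse complement ATTGG, in capitals, of which 2 overlap. The classical SREBP element, TCACNCCAC, was not found in the promoter of Fasn. Only exact matches to these letters were searched, so SREBP sites with other letters would be missed. A link between the promoter and the level of Fasn was not tested.
Fasn: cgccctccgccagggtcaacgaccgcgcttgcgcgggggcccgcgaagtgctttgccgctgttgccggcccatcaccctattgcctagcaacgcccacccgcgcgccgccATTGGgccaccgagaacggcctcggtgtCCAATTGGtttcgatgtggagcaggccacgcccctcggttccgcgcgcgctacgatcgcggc

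Acly, which makes cytosolic acetyl-CoA from citrate, was at 32.1, 27.3 and 28.7 FPKM in dnEGFR mutants, against 24.1, 25.03 and 25.9 FPKM in dnEGFR controls. All mutants were above all controls there (log2 change 0.22, SE 0.10, adjusted p = 0.893). In ErbB2V664E mutants Acly was at 27.3, 23.4 and 26.6 FPKM, against 31.2, 26.3 and 26.5 FPKM in controls, and these groups overlapped (log2 change -0.12, SE 0.10, adjusted p = 0.708). The difference of the effects on Acly was -0.34 (95% confidence interval -0.66 to -0.01, unadjusted p = 0.0424, adjusted p = 0.541). Acaca, the acetyl-CoA carboxylase of the rate-limiting step, was at 4.75, 5.18 and 4.4 FPKM in dnEGFR mutants, against 4.33, 5.78 and 5.43 FPKM in dnEGFR controls. In the ErbB2V664E line it was at 4.56, 4.17 and 4.96 FPKM in mutants, against 5.45, 4.23 and 5.05 FPKM in controls. Acaca overlapped between mutants and controls in both lines, with log2 changes of -0.09 (95% confidence interval -0.35 to 0.17) and -0.08 (-0.35 to 0.18) and adjusted p of 0.999 and 0.831.

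The desaturases hold the gene with the smallest p of the list. Scd2 was at 292, 227 and 209 FPKM in the ErbB2V664E mutants, against 359, 332 and 333 FPKM in their controls. All mutants were below all controls, mutant 1 least so (log2 change -0.51, SE 0.12, adjusted p = 0.126). Without mutant 1 the log2 change was -0.65 and the adjusted p 0.00954, so that Scd2 was then called, and with mutant 1 as the only mutant the log2 change was -0.22, a value from 1 library. In dnEGFR mutants Scd2 was at 315, 302 and 307 FPKM, against 305, 318 and 341 FPKM in dnEGFR controls, and the groups overlapped (log2 change -0.06, SE 0.12, adjusted p = 1). The difference between the lines was -0.45 (95% confidence interval -0.81 to -0.08, unadjusted p = 0.0213, adjusted p = 0.484).

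Scd1 was uneven between control libraries. It was at 59.6, 54.5 and 56.5 FPKM in dnEGFR mutants, against 7.81, 55.6 and 7.91 FPKM in dnEGFR controls. Control 2 lay among the mutants and the other 2 controls far below (log2 change 1.81, SE 0.68, 95% confidence interval 0.30 to 3.33, unadjusted p = 0.0233, adjusted p = 0.811). ErbB2V664E mutants had 65.1, 54.6 and 50.6 FPKM, against 17.7, 59.1 and 63.7 FPKM in controls, where control 1 alone was low (log2 change 0.46, SE 0.68, adjusted p = 0.842). Of the 6 control libraries 3 thus had a low Scd1 level, and no mutant library did. Scd1 was among 3 of the 36 genes that differed over 3-fold between the dnEGFR controls (8.33%, against 8.42% of all loci tested). The share of all loci is a lower bound, since the 629 of 13803 loci with a 0 in a dnEGFR control were not counted as over 3-fold.

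Fads2 was at 56.1, 47.2 and 50.5 FPKM in the ErbB2V664E mutants, against 60.1, 58.6 and 64.2 FPKM in their controls. All mutants were below all controls (log2 change -0.25, SE 0.09, adjusted p = 0.296). Fads2 was at 35.998, 36.3 and 36.8 FPKM in dnEGFR mutants, against 30.9, 33.9 and 35.5 FPKM in dnEGFR controls. There all mutants were above all controls by a small amount (log2 change 0.12, SE 0.09, adjusted p = 0.987). The difference of the effects was -0.37 (95% confidence interval -0.65 to -0.09, unadjusted p = 0.0159, adjusted p = 0.45), the smallest p among the 36 genes for that comparison. Its neighbour in the pathway, Fads1, which acts after Fads2, was at 13.5 to 30.5 FPKM in ErbB2V664E mutants and 18.2 to 23.4 FPKM in ErbB2V664E controls, and at 9.31 to 17.9 FPKM in dnEGFR mutants and 12.6 to 16.6 FPKM in dnEGFR controls. Fads1 overlapped in both lines, with log2 changes of -0.12 in ErbB2V664E mutants (95% confidence interval -0.77 to 0.53) and -0.19 in dnEGFR mutants (-0.84 to 0.47).

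**Figure D3:**
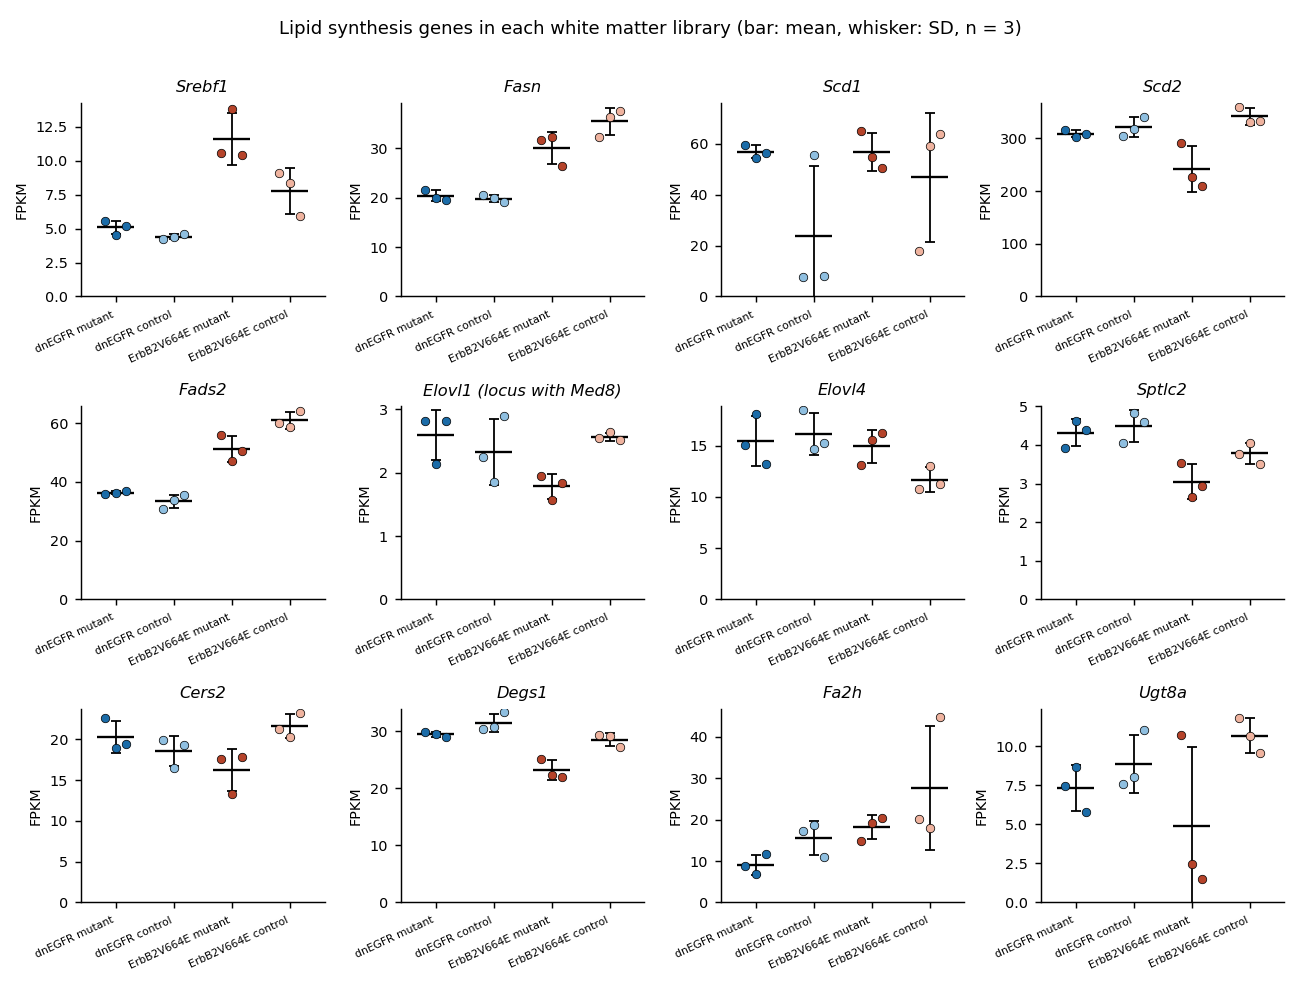
FPKM of 12 of the genes in each of the 12 libraries, with mutants left of controls in each line, a horizontal bar at the mean and a whisker for the SD (n = 3 each, axes from 0). Scd2, Fads2, Cers2 and Degs1 lie lower in every ErbB2V664E mutant than in any ErbB2V664E control, and Ugt8a is low in 2 of the 3 mutants.

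Of the 6 elongases, 4 lay lower in every ErbB2V664E mutant than in any control, as 8.96% of all loci did, and 1, Elovl4, lay higher, as 9.28% of all loci did. The median log2 change of the 6 was -0.37 in the ErbB2V664E line and 0.11 in the dnEGFR line. The dnEGFR median was 0.04 without dnEGFR control 2, 0.24 without dnEGFR mutant 1 and 0.24 without dnEGFR mutant 3. Elovl5, which elongates polyunsaturated chains, was at 11.2, 9.49 and 8.0 FPKM in the ErbB2V664E mutants, against 14.9, 14.2 and 14.0 FPKM in controls. No library of one group reached the other (log2 change -0.55, 95% confidence interval -1.12 to 0.02, adjusted p = 0.426). In the dnEGFR line it was at 13.9, 12.4 and 13.9 FPKM in mutants, against 12.05, 5.45 and 13.5 FPKM in controls. Each dnEGFR mutant was above its littermate, most of all in litter 2, where the control was low (log2 change 0.43, adjusted p = 0.953). The difference of the effects on Elovl5 was -0.98 (95% confidence interval -1.79 to -0.18, unadjusted p = 0.0217, adjusted p = 0.484), and it was -0.62 without dnEGFR control 2.

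Elovl4 was at 13.1, 15.5 and 16.2 FPKM in the ErbB2V664E mutants, against 10.8, 13.0 and 11.3 FPKM in controls. All mutants were above all controls, though mutant 1 and control 2 were close (log2 change 0.33, SE 0.14, adjusted p = 0.373). In dnEGFR mutants Elovl4 was at 15.1, 18.1 and 13.2 FPKM, against 18.5, 14.7 and 15.3 FPKM in dnEGFR controls, and the groups overlapped (log2 change -0.06, adjusted p = 1). Elovl1, the elongase of saturated very long chains, shares its locus with Med8, so the level is of both genes together. The joined locus was at 1.95, 1.56 and 1.84 FPKM in the ErbB2V664E mutants, against 2.54, 2.64 and 2.52 FPKM in controls, with all mutants lower (log2 change -0.36, SE 0.12, adjusted p = 0.265). In dnEGFR mutants it was at 2.81, 2.13 and 2.82 FPKM, against 2.24, 1.86 and 2.89 FPKM in controls, which overlapped (log2 change 0.11, adjusted p = 0.994). The difference for this locus was -0.47 (95% confidence interval -0.86 to -0.08, adjusted p = 0.487).

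The remaining elongases were low and uneven. Elovl2, which acts on long polyunsaturated chains, was at 1.43, 3.33 and 3.27 FPKM in ErbB2V664E mutants, against 3.81, 3.45 and 3.6 FPKM in controls (log2 change -0.38, adjusted p = 0.746). Elovl7, which elongates saturated and monounsaturated chains, was at 4.95, 2.52 and 3.15 FPKM in ErbB2V664E mutants, against 6.06, 5.84 and 5.68 FPKM in controls (log2 change -0.63, adjusted p = 0.587). Both lay below all controls in every mutant of that line. For dnEGFR mice Elovl2 was at 0.641 FPKM in control 2 alone and at 2.94 to 4.13 FPKM elsewhere, and Elovl7 at 6.62 FPKM in mutant 2 alone and at 1.04 to 2.36 FPKM elsewhere. Elovl6, which extends palmitate to stearate, overlapped between mutants and controls in both lines. Its log2 change was -0.33 in ErbB2V664E mutants (95% confidence interval -0.99 to 0.33) and 0.05 in dnEGFR mutants (-0.61 to 0.71).

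No gene that activates fatty acids or leads into glycerolipids was called in a mutant comparison. The acyl-CoA synthetases Acsl1, Acsl3 (joined with Utp14b at 1 locus) and Acsl6 had log2 changes between -0.08 and 0.03 in dnEGFR mutants and between -0.11 and 0.04 in ErbB2V664E mutants. Acsl6, the brain form, had a 95% confidence interval of -0.21 to 0.15 in the dnEGFR line and -0.29 to 0.08 in the ErbB2V664E line. Gpd1, the glycerol-3-phosphate dehydrogenase, was at 24.8, 32.2 and 25.02 FPKM in ErbB2V664E mutants, against 21.9, 24.7 and 22.4 FPKM in controls, with all mutants above all controls, though mutant 1 and control 2 nearly met (log2 change 0.23, adjusted p = 0.627). Pcyt2, which activates ethanolamine for phosphatidylethanolamine synthesis, was at 11.3, 12.3 and 9.48 FPKM in ErbB2V664E mutants, against 10.4, 14.02 and 15.6 FPKM in controls. These groups overlapped (log2 change -0.24, 95% confidence interval -0.57 to 0.08, adjusted p = 0.547). In the dnEGFR line Pcyt2 was at 13.3, 11.9 and 12.4 FPKM in mutants, against 11.9, 10.996 and 13.1 FPKM in controls, which overlapped too (log2 change 0.06, 95% confidence interval -0.26 to 0.39, adjusted p = 1).

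Ceramide synthesis was lower in sum in the ErbB2V664E mutants. Its 8 genes summed to 58.2 ± 2.51 FPKM in ErbB2V664E mutants and 70.2 ± 2.44 FPKM in ErbB2V664E controls, and to 68.9 ± 2.68 FPKM in dnEGFR mutants and 69.2 ± 1.44 FPKM in dnEGFR controls (SD, n = 3 each). Single ErbB2V664E mutants were at 60.7, 55.7 and 58.2 FPKM, against 73.0, 68.7 and 68.9 FPKM in controls, and Cers2 and Degs1 held most of the gap between the means. The sum was not tested, and Sptlc2, Cers2 and Degs1 were the members with an unadjusted p under 0.05 in the fit without the litter block.

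Degs1, which places the double bond that turns dihydroceramide into ceramide, was at 25.2, 22.4 and 21.9 FPKM in the ErbB2V664E mutants, against 29.3, 29.1 and 27.3 FPKM in controls. All mutants were lower than all controls (log2 change -0.29, SE 0.08, 95% confidence interval -0.48 to -0.11, adjusted p = 0.188). Degs1 was also lower in every dnEGFR mutant, at 29.9, 29.5 and 29.1 FPKM, against 30.5, 30.7 and 33.3 FPKM in dnEGFR controls (log2 change -0.09, SE 0.08, adjusted p = 0.987). Of the 36 genes it alone was below all controls in the dnEGFR line (2.78%, against 4.57% of all loci). The share of all loci below all controls in both lines was not counted. The difference of the effects on Degs1 was -0.20 (95% confidence interval -0.46 to 0.06, adjusted p = 0.644).

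Cers2 was at 17.6, 13.3 and 17.9 FPKM in the ErbB2V664E mutants, against 21.2, 20.3 and 23.2 FPKM in controls. All mutants were lower, mutant 2 most (log2 change -0.40, SE 0.13, 95% confidence interval -0.69 to -0.11, adjusted p = 0.243). In the dnEGFR line it was at 22.5, 18.9 and 19.4 FPKM in mutants, against 19.9, 16.5 and 19.3 FPKM in controls. Each dnEGFR mutant was above its littermate, and the groups overlapped (log2 change 0.12, SE 0.13, adjusted p = 0.994). The difference was -0.52 (95% confidence interval -0.93 to -0.11, unadjusted p = 0.0183, adjusted p = 0.475).

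Degs1 and Cers2 are shown upstream as genes of ceramide synthesis that were lower in every ErbB2V664E mutant and hold the palindromic E-box CACGTG, in capitals. The elongase gene Elovl5 was also lower in every ErbB2V664E mutant and holds the E-box, and it is not shown. The sequences are the 200 bases before the start in the RefSeq promoter table (GRCm38.p6), for Degs1 on the minus strand at chr1:182282196-182282395 and for Cers2 on the plus strand at chr3:95314990-95315189.
Degs1: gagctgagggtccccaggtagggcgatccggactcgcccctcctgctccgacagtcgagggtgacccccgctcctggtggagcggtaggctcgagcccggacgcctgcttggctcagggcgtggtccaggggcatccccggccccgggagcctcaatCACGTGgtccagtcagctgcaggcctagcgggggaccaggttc
Cers2: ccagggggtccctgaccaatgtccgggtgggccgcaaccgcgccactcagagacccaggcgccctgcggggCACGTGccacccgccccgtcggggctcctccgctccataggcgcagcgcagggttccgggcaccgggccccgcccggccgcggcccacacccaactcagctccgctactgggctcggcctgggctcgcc

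Of the 36 genes, 30 had a promoter in that table, which spans 250 bases before to 50 after each start, and a gene counted when any of its starts held the motif. On either strand, CACGTG occurred in 7 of the 30 (23.3%, against 8.09% of all genes in the table), namely Cers2, Cers6, Degs1, Elovl4, Elovl5, Sgms2 and Sgpp2. Of these 7, Cers2, Degs1 and Elovl5 were lower in every ErbB2V664E mutant and Elovl4 was higher in every one. Fads2, Elovl1, Elovl2 and Elovl7 were also lower in every ErbB2V664E mutant and had no CACGTG, and Scd2, lower too, had no promoter in the table. A link between the motif and the level was not tested. CCAAT occurred in 17 of the 30 (56.7%, against 41.1% of all genes). The classical SREBP element TCACNCCAC occurred in Acsl1 alone (3.33%, against 1.44%), and the Sox motif ACAAAG in 5 (16.7%, against 21.02%). The 30 genes had 48 starts, and the 27025 genes of the table had 32851. Per start, CACGTG occurred in 14.6% (7.15% of all starts) and CCAAT in 45.8% (37.4% of all starts). The SREBP element occurred in 2.08% (1.24% of all starts) and the Sox motif in 10.4% (18.7% of all starts). In the 30 genes no match of one motif overlapped a match of another, and a match is a description of letters and not of binding.

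The serine palmitoyltransferase subunits Sptlc1 and Sptlc2 start sphingolipid synthesis by joining serine and palmitoyl-CoA. Sptlc2 was at 3.55, 2.65 and 2.94 FPKM in the ErbB2V664E mutants, against 3.78, 4.05 and 3.51 FPKM in controls. Each mutant was below its littermate, but mutant 1 lay just above control 3 (log2 change -0.25, SE 0.10, adjusted p = 0.373). In dnEGFR mutants Sptlc2 was at 3.93, 4.62 and 4.39 FPKM, against 4.04, 4.83 and 4.59 FPKM in controls, overlapping (log2 change -0.05, adjusted p = 1). Sptlc1 overlapped in both lines, with log2 changes of 0.04 in dnEGFR mutants and -0.14 in ErbB2V664E mutants. The other ceramide synthases, Cers1, Cers4, Cers5 and Cers6, differ in the acyl chains they prefer and overlapped between mutants and controls in both lines, with log2 changes between -0.49 and 0.24 in the dnEGFR line and between -0.09 and 0.09 in the ErbB2V664E line. Cers6 was uneven, at 3.14 FPKM in ErbB2V664E mutant 2 and at 0.418 and 0.429 FPKM in mutants 1 and 3.

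Ceramide can instead take a phosphocholine head group. The genes of this branch, and Sgpp2, which acts on a sphingoid phosphate, overlapped between mutants and controls in both lines. The sphingomyelin synthases Sgms1 and Sgms2 had log2 changes of -0.12 and 0.01 in dnEGFR mutants and of -0.06 and -0.13 in ErbB2V664E mutants. Smpd1, the acid sphingomyelinase that splits sphingomyelin in lysosomes, had log2 changes of -0.20 and 0.18. Sgpp2, a phosphatase of sphingosine-1-phosphate, was at 7.0, 6.03 and 7.4 FPKM in dnEGFR mutants, against 2.81, 6.32 and 0.786 FPKM in dnEGFR controls. Control 2 lay within the range of the mutants and the other controls below it (log2 change 1.08, SE 0.40, unadjusted p = 0.0216, adjusted p = 0.794). Without dnEGFR control 3 the log2 change of Sgpp2 was 0.56. ErbB2V664E mutants had 6.36, 6.07 and 4.47 FPKM, against 7.63, 7.85 and 5.64 FPKM in controls, each mutant below its littermate (log2 change -0.28, adjusted p = 0.835). The difference for Sgpp2 was -1.36 (95% confidence interval -2.61 to -0.11, adjusted p = 0.521), and it was -0.84 without dnEGFR control 3. Control 2 of the dnEGFR line was thus the high control for both Scd1 and Sgpp2.

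Genes of the galactolipid branch were uneven between libraries. Ugt8a, the galactosyltransferase that makes galactosylceramide, was at 10.7, 2.44 and 1.52 FPKM in the ErbB2V664E mutants, against 11.8, 10.6 and 9.54 FPKM in controls. Mutants 2 and 3 were far below all controls, while mutant 1 lay among them (log2 change -1.32, SE 0.45, 95% confidence interval -2.33 to -0.30, adjusted p = 0.266). Without mutant 1 the log2 change was -1.98 and Ugt8a was called (adjusted p = 0.00308), without mutant 3 it was -0.87, and with mutant 1 as the only mutant it was 0.01, a value from 1 library. In dnEGFR mutants Ugt8a was at 7.43, 8.69 and 5.77 FPKM, against 7.6, 8.05 and 11.01 FPKM in controls, and the groups overlapped (log2 change -0.25, SE 0.45, adjusted p = 1).

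Fa2h, which hydroxylates the acyl chain of galactolipids, was at 8.74, 6.82 and 11.7 FPKM in dnEGFR mutants, against 17.1, 18.6 and 10.9 FPKM in dnEGFR controls. Mutants 1 and 2 were below all controls, and litter 3 went the other way (log2 change -0.71, SE 0.33, 95% confidence interval -1.46 to 0.04, adjusted p = 0.894). ErbB2V664E mutants had 14.9, 19.2 and 20.4 FPKM, against 20.1, 17.9 and 44.8 FPKM in controls. Control 3 stood far above all other libraries, and without it the groups lay within one range (log2 change with all libraries -0.47, SE 0.33, adjusted p = 0.626). Gal3st1, the sulfotransferase that makes sulfatide, was at 4.88, 3.4 and 3.36 FPKM in ErbB2V664E mutants, against 4.07, 5.84 and 8.52 FPKM in controls. It overlapped in 1 library of each (log2 change -0.52, SE 0.25, adjusted p = 0.44). In dnEGFR mutants Gal3st1 was at 3.21, 3.24 and 1.73 FPKM, against 2.97, 3.45 and 4.26 FPKM in controls (log2 change -0.31, adjusted p = 0.987).

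Galc, the lysosomal enzyme that degrades galactosylceramide, was at 6.23, 5.88 and 6.78 FPKM in ErbB2V664E mutants, against 6.14, 5.09 and 4.96 FPKM in controls, each mutant above its littermate (log2 change 0.19, adjusted p = 0.545). Ugcg, which couples glucose to ceramide, was at 2.94 FPKM in dnEGFR mutant 3 and at 13.9 to 16.3 FPKM in the other libraries of that line. All 5 genes of this branch had a log2 change below 0 in the dnEGFR line, with a median of -0.31, and 4 of the 5 did in the ErbB2V664E line, with a median of -0.47. The dnEGFR median was -0.20 without dnEGFR control 3 and -0.11 without dnEGFR mutant 3, and the ErbB2V664E median was -0.11 without ErbB2V664E control 3. Summed, they reached 37.1, 38.5 and 27.4 FPKM in dnEGFR mutants, against 48.9, 49.4 and 44.8 FPKM in dnEGFR controls. Fa2h and Ugcg, the second through mutant 3 alone, held most of that gap. The sum was not tested, and no gene of the branch had an unadjusted p under 0.05 in that line.

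Libraries of the ErbB2V664E mutants were not alike. Mutant 1 had 777 FPKM summed over the 36 genes, against 808, 821 and 854 FPKM in the controls, and mutants 2 and 3 had 663 and 635 FPKM. Scd2 held most of the gap between the means of the 2 groups. In dnEGFR mutants the sums were 726, 694 and 686 FPKM, against 657, 712 and 686 FPKM in dnEGFR controls, and the groups overlapped.

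**Figure D4:**
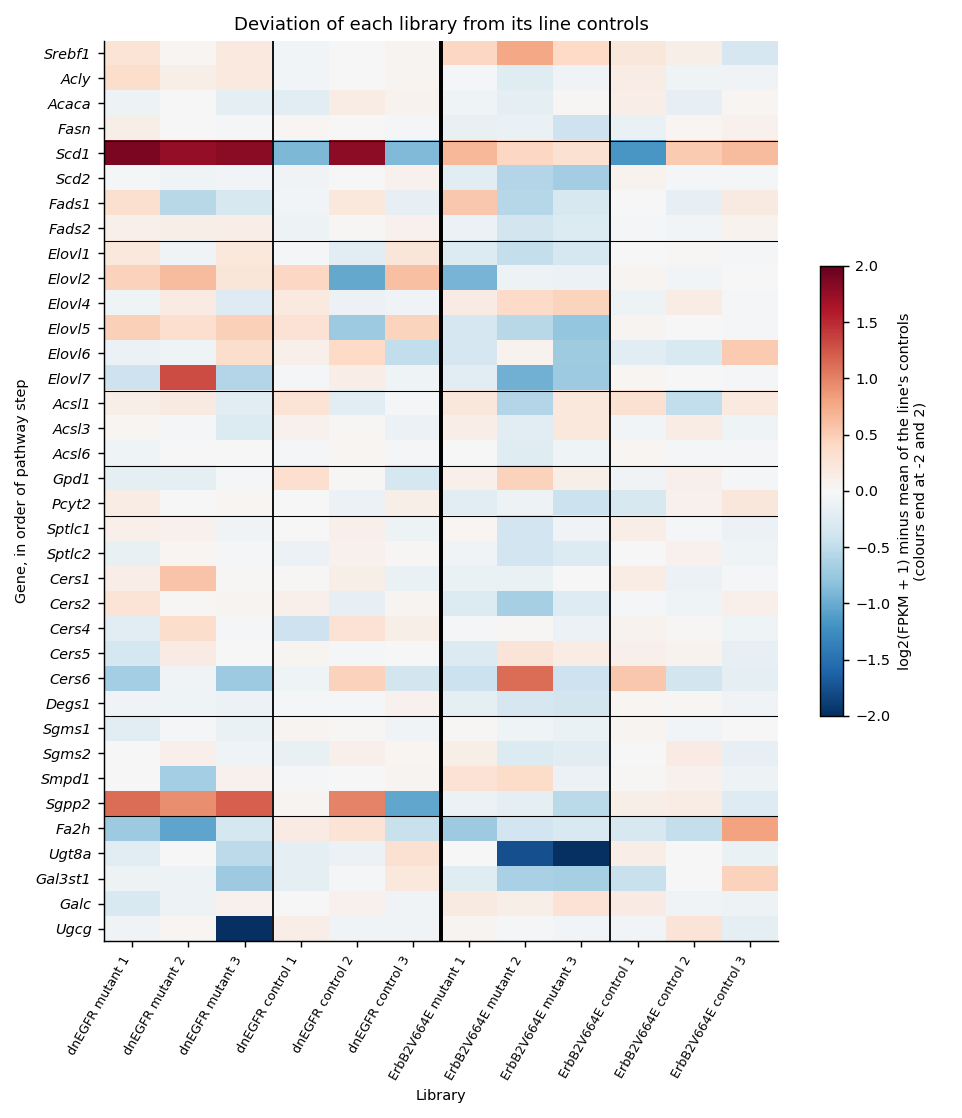
Deviation of log2(FPKM + 1) from the mean of the line's controls for the 36 genes, in pathway order, and the 12 libraries, mutants left of controls in each line (colours end at -2 and 2). ErbB2V664E mutants 2 and 3 share the low Ugt8a and Gal3st1, while mutant 1 stays near its controls for Ugt8a. The Scd1 row is low in dnEGFR controls 1 and 3 (-0.90 and -0.88) and in ErbB2V664E control 1 (-1.16). The Sgpp2 row is lowest in dnEGFR control 3 (-1.04).

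Markers of several cell types differed between the same libraries. The 12 mature myelin markers, among them Ugt8a, summed to 1299, 801 and 999 FPKM in ErbB2V664E mutants, against 1719.9, 1312 and 1970.1 FPKM in controls, and 11 of the 12 had a log2 change below 0. Mag, a myelin adhesion protein, and Enpp6, a gene of newly formed oligodendrocytes, were the called markers there, with log2 changes of -1.22 (adjusted p = 0.0449) and -1.04 (adjusted p = 0.0464). Each was called under 6 of 23 alternatives, with adjusted p by limma from 0.00469 to 0.471 for Mag and from 0.00982 to 0.481 for Enpp6, and with the litter block they were 0.109 and 0.0785. The 8 microglia markers summed to 103, 70.1 and 61.9 FPKM in the mutants, against 112, 98.6 and 130 FPKM in controls, and 5 red blood cell markers to 118, 32.5 and 22.1 FPKM in the mutants, against 143, 95.5 and 214 FPKM in controls. Choroid plexus and ependymal markers were at 642, 23.0 and 105 FPKM in the mutants, against 262, 578 and 264 FPKM in controls. In the dnEGFR line they were at 408, 701 and 139 FPKM in mutants, against 27.7, 713 and 622 FPKM in controls, where control 1 was low. The 6 markers of newly formed oligodendrocytes, Enpp6 among them, summed to 53.2, 47.7 and 39.4 FPKM in ErbB2V664E mutants, against 75.4, 67.4 and 87.4 FPKM in controls, with no overlap, and all 5 that were tested had a log2 change below 0. Those 6 summed to 71.6, 75.8 and 68.1 FPKM in dnEGFR mutants, against 50.5, 59.98 and 70.1 FPKM in controls, which overlapped. In all of these lists mutant 1 was the highest of the ErbB2V664E mutants. The part of cell composition or blood in the lower lipid genes was not tested.

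Neuron markers went the other way, at 589, 642 and 609 FPKM in ErbB2V664E mutants, against 493, 563 and 514 FPKM in controls. The 6 oligodendrocyte precursor markers summed to 34.1, 29.2 and 31.5 FPKM in the mutants, against 38.7, 33.2 and 37.8 FPKM in controls, and 7 astrocyte markers to 199, 205 and 230 FPKM in the mutants, against 417, 239 and 257 FPKM in controls. Endothelial markers were at 44.7, 49.1 and 44.9 FPKM in mutants, against 38.2, 42.1 and 31.3 FPKM in controls. Mature myelin markers of the dnEGFR line summed to 1343, 1141 and 1219 FPKM in mutants, against 1145, 1193 and 1305 FPKM in controls, and the groups overlapped. The 4 Schwann cell markers did not exceed 9.43 FPKM in any library. The 5 red blood cell markers of the dnEGFR line reached 116, 279 and 243 FPKM in mutants, against 149, 126 and 155 FPKM in controls.

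**Figure D5:**
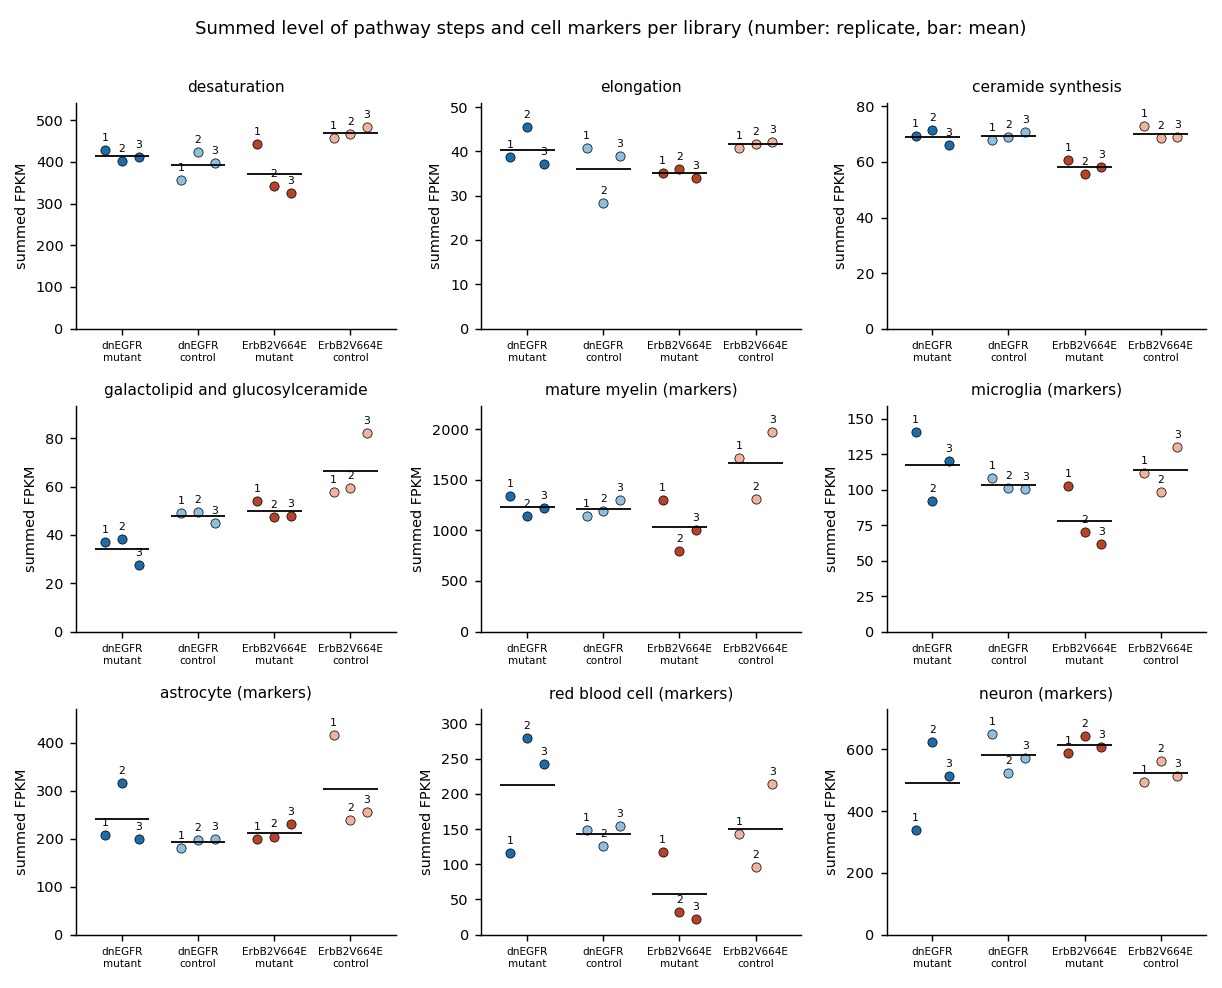
Summed FPKM of 4 pathway steps and 5 lists of cell markers in each library, mutants left of controls in each line, with the replicate number at each point and a bar at the mean (n = 3 each, axes from 0). Ceramide synthesis at 55.7 to 60.7 FPKM and elongation at 34.1 to 35.9 FPKM lie lower in all ErbB2V664E mutants than in their controls, and red blood cell and mature myelin markers are low in ErbB2V664E mutants 2 and 3.

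Other genes of these pathways were read from lists of 108 symbols, of which 105 had a locus and 93 were tested. None was called in either line or for the difference, by limma. At an unadjusted p under 0.05 there were 3 higher and 4 lower genes in the dnEGFR line, 7 of the 93 (7.53%, against 5.69% of all loci). In the ErbB2V664E line there were 3 higher and 10 lower, 13 of the 93 (13.98%, against 12.1% of all loci). Col4a3bp, which encodes the ceramide transfer protein that carries ceramide to the Golgi for sphingomyelin synthesis, was at 12.4, 11.5 and 9.99 FPKM in dnEGFR mutants, against 6.61, 4.97 and 4.73 FPKM in dnEGFR controls (log2 change 0.94, SE 0.17, adjusted p = 0.147). It was at 9.51, 9.33 and 9.95 FPKM in ErbB2V664E mutants, against 3.87, 5.35 and 6.99 FPKM in ErbB2V664E controls (log2 change 0.75, SE 0.17, adjusted p = 0.13). In each line all mutants were above all controls, and the difference of the effects was -0.19 (adjusted p = 0.847).

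Gltp, a glycolipid transfer protein, had the smallest adjusted p of these genes. It was at 37.1, 29.4 and 28.0 FPKM in ErbB2V664E mutants, against 57.0, 47.5 and 69.9 FPKM in controls, with all mutants lower (log2 change -0.86, SE 0.16, adjusted p = 0.0676). Without ErbB2V664E mutant 1 it was called (log2 change -0.98, adjusted p = 0.0238). Gltp in the dnEGFR line was at 25.7, 21.7 and 23.0 FPKM in mutants, against 22.7, 24.2 and 27.3 FPKM in controls, which overlapped (log2 change -0.07, adjusted p = 1). Agpat4, an acyltransferase of phosphatidic acid synthesis, was at 10.2, 8.41 and 8.74 FPKM in ErbB2V664E mutants, against 12.5, 13.6 and 11.2 FPKM in controls (log2 change -0.41, adjusted p = 0.17). In dnEGFR mutants Acsl4, an acyl-CoA synthetase that prefers arachidonic acid, was at 5.45, 6.86 and 5.59 FPKM, against 8.86, 14.3 and 10.1 FPKM in controls (log2 change -0.78, adjusted p = 0.264). Agpat3, read from a locus joined with a gene known by a clone name, was at 8.27, 6.66 and 9.68 FPKM in dnEGFR mutants, against 5.16, 4.94 and 4.19 FPKM in controls (log2 change 0.67, adjusted p = 0.274).

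Between the 2 sets of controls a smaller share of the lipid genes was called than of all loci. In ErbB2V664E controls against dnEGFR controls 5 of the 36 genes were called (13.9%, against 20% of all loci), and all 5 were higher, where 10.9% of all loci were called higher. Gpd1 was at 21.9, 24.7 and 22.4 FPKM in ErbB2V664E controls, against 13.8, 10.99 and 8.24 FPKM in dnEGFR controls (log2 change 1.02, SE 0.17, adjusted p = 0.00265). The other log2 changes were 0.90 for Cers1 (adjusted p = 0.00246), 0.85 for Fads2 (0.000328), 0.80 for Fasn (0.000716) and 0.68 for Srebf1 (0.0121). The log2 change was below 0 for 10 of the 36 genes (48.5% of all loci). Every ErbB2V664E control was above every dnEGFR control in 10 genes (21.6% of all loci) and below in 3 (19.8% of all loci). The 5 genes stayed under 0.05 in every alternative that gives a value for this comparison, the highest adjusted p being 0.0427, for Srebf1. For each of the 5 called genes, every ErbB2V664E control was above every dnEGFR control. Elovl4 was lower in every ErbB2V664E control (log2 change -0.43, adjusted p = 0.0536). Line, age and length of doxycycline cannot be told apart in this comparison. Summed FPKM of a library was also higher in ErbB2V664E controls (127253 to 130276) than in dnEGFR controls (117363 to 120097). The median log2 change of the 36 genes between the controls was 0.16, and 0.046 after rescaling to the same sum.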

How the data were processed

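Expression was measured in 12 libraries of subcortical white matter, grouped by the genotype in the labels. Per the labels' protocols, polyadenylated RNA was fragmented, copied with random hexamers and sequenced in paired ends by a protocol that does not mark strand, so overlapping genes on opposite strands share their fragments. The deposited values are FPKM from StringTie, per the series' design text. HISAT and StringTie appear without versions in the submitters' processing notes, and the sources used here give no genome build, annotation or options. A deposited locus can join 2 genes, as for 2 of the 36 genes. Depth was estimated from the commonest step of low FPKM at loci with 1 transcript, with lengths from GENCODE transcripts, and 39.7 to 42.6% of low values lay within 0.01 fragments of such a step, so whole counts were not recovered.

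FPKM were tested as log2(FPKM + 1), a pseudocount of 1 that understates changes of low genes, with limma 3.58.1 in R 4.3.3. The model had 1 mean per group, a variance trend, 8 residual and 2.03 prior degrees of freedom, and tests were two-sided. Benjamini-Hochberg adjustment ran over 13803 loci with at least 1 FPKM in at least 3 libraries. Python 3.11.15 with pandas 2.3.3, numpy 2.4.6, scipy 1.17.1 and matplotlib 3.10.9 made the tables and plots, and the fit was tested on simulated data. Alternatives covered the pseudocount, filter, scaling, variance model, libraries in the fit, litter block, locus per symbol and each library left out.

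Mutants are numbered in the descriptions, which name the littermate control of each, so numbers stand for litters and pair the libraries. Within litters 1 to 6, deviations from group means correlated at 0.02, 0.01, 0.03, 0, 0.01 and -0.03. The labels do not say that each library is 1 animal, and p-values measure the spread between these libraries.

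The 36 genes, pathway lists and marker lists were chosen with earlier results of these data known. Values in every library are given for genes with an unadjusted p under 0.05 in a mutant comparison or the difference and for fixed steps of the pathway. Other pathway genes are named when called or among the 3 smallest p in a line. Genes named beyond this rule were chosen after their values were seen. Col4a3bp is listed with its newer symbol Cert1, and the table holds the older. Promoters come from RefSeq (GRCm38.p6), matched by symbol.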

Additional observations from a re-analysis of the deposited data

Results flagged for a closer look

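For 4 of the 36 lipid genes every mutant differed from its littermate in one direction in the ErbB2V664E line and in the other in the dnEGFR line, with 3 litters in each (11.1%, against 4.04% of all loci with opposite directions in every litter of the lines). That opposition of directions was not tested as such, and the 36 genes were chosen with earlier results of these data known. The effects themselves were compared by limma as ErbB2V664E minus dnEGFR, and none of the 4 passed the threshold.

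Fasn, fatty acid synthase, was lower in 3 of 3 ErbB2V664E litters and higher in 3 of 3 dnEGFR litters, with a difference of -0.27 on the log2 scale (SE 0.14, adjusted p = 0.602). Fads2, a desaturase of polyunsaturated fatty acids, had a difference of -0.37 (SE 0.13, adjusted p = 0.45). Elovl5, which elongates the products of Fads2, had a difference of -0.98 (SE 0.36, adjusted p = 0.484), and it was -0.62 without dnEGFR control 2, the low library at 5.45 FPKM. Cers2, the main ceramide synthase of the tissue, had a difference of -0.52 (SE 0.18, adjusted p = 0.475). The dnEGFR effects behind these differences were small for Fasn (0.04), Fads2 (0.12) and Cers2 (0.12), and their 95% intervals included 0. The dnEGFR effect on Elovl5 was 0.43, and its 95% interval of -0.14 to 1.00 included 0 too.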

How the results depend on the processing

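The median log2 change of the 36 genes kept its sign in the ErbB2V664E line, from -0.203 to -0.0727 when 1 library was left out (-0.203 without ErbB2V664E control 2, -0.193 without mutant 1 and -0.0727 without mutant 2, against -0.12 with all libraries), and 0 of the 36 were called in either line or for the difference under every alternative except one: without ErbB2V664E mutant 1, Scd2 and Ugt8a were called, so that 0 to 2 of the 36 were called over the libraries left out. The median ranged from -0.04 to 0.02 in the dnEGFR line, from -0.27 to -0.12 for the difference (-0.120 without ErbB2V664E mutant 2 and -0.124 without dnEGFR mutant 2) and from 0.14 to 0.20 between the controls, where 5 to 7 genes were called. With only replicate 1 of the ErbB2V664E mutants kept, an alternative chosen after seeing the data in which the lone mutant is assumed to vary like the other groups, the median difference was -0.0226 (-0.19 with all libraries), Ugt8a was reversed at 0.0114, and 30 loci were called for the difference (16 with all libraries). Between the controls the median of 0.16 became 0.11 after quantile normalization and 0.046 after rescaling to the same sum. Before rescaling, the summed FPKM of a library was 117363 to 120097 in dnEGFR controls and 127253 to 130276 in ErbB2V664E controls. The causes of these shifts were not tested.

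Over all loci, 38 calls in the ErbB2V664E line became 25 with the libraries of that line only and 21 with a filter on a mean of at least 1 FPKM, and 13 calls in the dnEGFR line became 24 with its own libraries only. With the litter as a replicate block, which leaves 4 residual degrees of freedom, 7, 3 and 4 loci were called in the ErbB2V664E line, the dnEGFR line and the difference, of which 6, 2 and 4 were also called without the block, and the block changed no call among the 36 genes. It gives no value between the controls. Leaving out 1 library gave 12 to 235 calls in the ErbB2V664E line, 9 to 34 in the dnEGFR line, 12 to 35 for the difference and 1809 to 2780 between the controls. Counts moved over 1.5 times in the ErbB2V664E line without its mutants 1 (235), 2 (12) and 3 (23), its controls 1 (21) and 3 (16), and dnEGFR controls 2 (25) and 3 (21). They did so in the dnEGFR line without its mutants 1 (24) and 3 (34) and controls 1 (31), 2 (24) and 3 (22), for the difference without ErbB2V664E mutant 1 (35), dnEGFR mutant 3 (27) and dnEGFR controls 1 (27) and 3 (28), and between the controls without ErbB2V664E control 3 (1809). Sgms2 and Cers6, the lowest of the 36 genes, lie near the filter on low values, and 3 libraries a group limit every comparison.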
